A study of Sus scrofa with 2 samples.

Results

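The nuclear genes for the mitochondrial ribosome, for protein import into mitochondria and for the factors of mitochondrial translation were compared between abnormal and normal cloned piglets by RNA-seq of biceps femoris muscle. Members were all entries of the joined count tables whose protein match was named a 39S, 28S or other mitochondrial ribosomal protein, a mitochondrial import subunit, or a mitochondrial elongation, initiation, release or recycling factor. The rule gave 77 of 12535 entries, of which 30 were proteins of the large ribosomal subunit, 25 of the small subunit, 14 import proteins and 8 translation factors. MTIF3 was listed in 2 entries, so that the members carried 76 names. The abnormal cloned group was 1 library from the pooled RNA of 3 newborn piglets that carry the label developmental failure. The normal cloned group was 1 library from a pool of 3 piglets by the labels, or of 4 piglets by the methods text. All piglets were clones made by somatic cell nuclear transfer from fibroblasts of male Large White pigs, were delivered by caesarean section, and were sampled on Day 1 after birth. All 3 abnormal and 2 of the normal clones came from embryonic fibroblasts, whereas the other 2 normal clones were made with ear fibroblasts of a different male, and thus the pools differed in part in their donor cells. With 1 library per group no difference between the conditions could be tested: the intervals and calls below compare the 2 libraries and cover counting error only.

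Mitochondria hold their own small genome, whose mRNAs code for a few core subunits of the respiratory chain and of ATP synthase. These mRNAs are read by a separate ribosome with a large (39S) and a small (28S) subunit, and by initiation, elongation, release and recycling factors of their own. Every protein of this ribosome is encoded in the nucleus, made in the cytosol and brought in through the TOM complex of the outer membrane and the TIM complexes of the inner membrane. In skeletal muscle, mitochondria are most abundant in the slow, oxidative fibres.

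The counts of uniquely mapped reads summed to 6.38 M in the abnormal cloned group and 6.52 M in the normal one, where 3 reads corresponded to 0.470 and 0.460 RPM (reads per 1 M). The mitochondrially encoded mRNAs took 36.0% of the abnormal library and 46.1% of the normal one. Totals without them shifted every log2 ratio by -0.25, and scaling to the median ratio of all entries shifted it by -0.36. All log2 ratios are of RPKM, that is reads per kb of transcript and 1 M unique reads, in the abnormal cloned group over that in the normal one. Values are given with the deposited totals unless stated, so a ratio above 0 by less than these shifts changes its sign with them. Of paired values, the first is that of the abnormal library. Fewer cells of a type and less RNA per cell cannot be told apart in such pools. Of the muscle marker list, 5 of 10 genes were found, and the actin gene ACTA1 had 431743 reads in the abnormal library compared with 390261 in the normal, so transcripts of skeletal muscle were abundant in both. The slow-fibre markers differed most of the marker lists: their 6 entries summed to 12573 reads in the abnormal library compared with 102464 in the normal (median log2 ratio -3.03), with MYH7, TNNC1, MYL3 and MYL2 called lower, CASQ2 at 0.37 and the entry with the symbol TPM3 at -0.11 on only 10 and 11 reads. A further entry without a symbol, matched to tropomyosin 3 and looked up after the values were seen, had 1933 and 12077 reads (-2.61) and was called lower. The part of this difference in the values below was not tested. The endothelial list summed to 1047 and 991 reads, the fibroblast list to 30496 and 34635, the blood list to 2805 and 4094, the immune list to 78 and 119 and the adipocyte list to 7 and 10, in the abnormal and normal library.

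The members kept nearly the same share of the libraries. Together they took 17708 reads or 0.278% of the abnormal library and 16751 reads or 0.257% of the normal library, a log2 ratio of 0.11 (95% interval 0.081 to 0.14), which turned to -0.14 with totals that leave out the mitochondrially encoded mRNAs. An entry was called when the Audic-Claverie test gave a false discovery rate of at most 0.001 and the log2 ratio was at least 1 in size. Of the 77 members 3 were called higher in the abnormal cloned group, or 3.90%, beside 12.0% of all entries. None of the members was called lower, beside 1.45% of all entries. The 3 called members were MRPS27, MRPS16 and the import protein TOMM40L. Of the 72 members with at least 10 reads in both libraries, 20 or 27.8% had an interval above 0, beside 45.5% of all such entries, and 12 or 16.7% had an interval below 0, beside 14.1%. The members thus held fewer higher values than the transcriptome of these libraries as a whole. Their median log2 ratio was 0.086 and that of all 7493 entries with as many reads was 0.36. Relative to the median of all entries the members' median was -0.27, and 52 of the 72 lay below it. The members' own median was above 0 only with the deposited totals: it was -0.16 without the mitochondrially encoded mRNAs, -0.22 without the 20 most abundant transcripts, -0.27 with the median ratio and -0.31 with TMM. RPKM of the 72 members ranked alike in both libraries (Spearman's rho 0.943 across genes, which share the libraries and are not replicates).

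**Figure D1:**
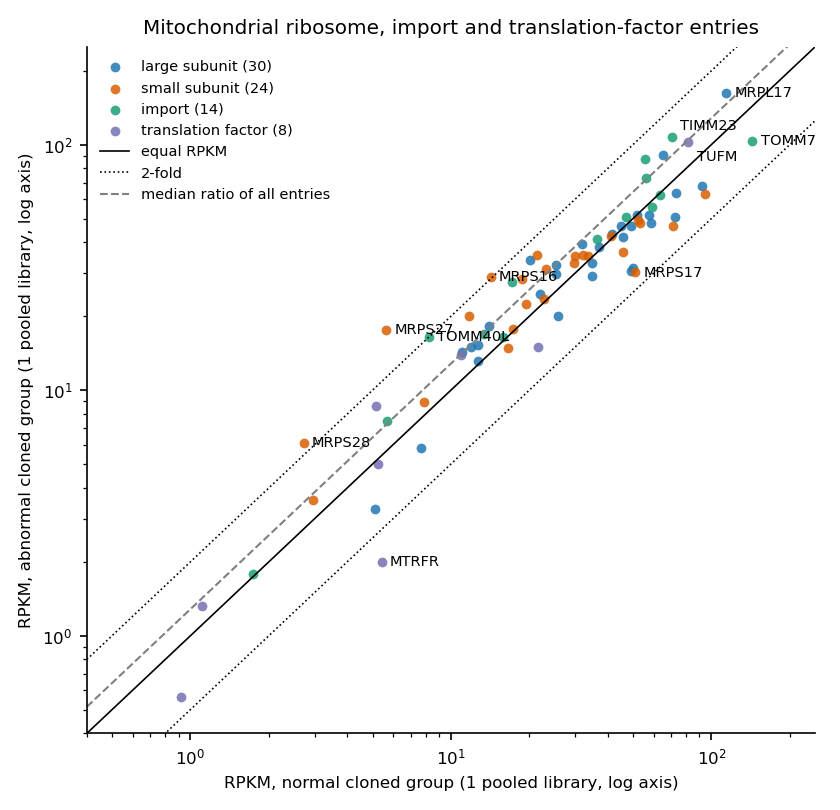
RPKM of each member with reads in both libraries, normal cloned group on the x axis and abnormal cloned group on the y axis, both on log axes. Colours give the 4 groups, the solid line equal RPKM, the dotted lines a 2-fold difference and the dashed line the median ratio of all entries. Most points lie along the line of equal RPKM, with MRPS27, MRPS28, MRPS16 and TOMM40L beyond the upper dotted line or on it and MTRFR below the lower one.

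The large subunit holds the centre that joins amino acids. Its 30 entries summed to 7290 reads in the abnormal library compared with 7403 in the normal, a log2 ratio of 0.0088 (-0.038 to 0.055). The median log2 ratio of the 29 entries with at least 10 reads in both libraries was 0.048 (-0.31 when scaled to the median ratio), with a range from -0.68 to 0.74, and 15 of the 29 were above 0. None was called. An interval above 0 was found for 5 entries and an interval below 0 for 6. The median RPKM was 33.4 in the abnormal library compared with 35.9 in the normal, whereas that of all entries was 3.12 and 2.26.

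MRPL17 was the highest large-subunit transcript, with 846 reads (RPKM 163) in the abnormal library compared with 607 reads (RPKM 114) in the normal. Its log2 ratio was 0.51 (0.36 to 0.66). MRPL28 had 693 and 508 reads (RPKM 90.6 and 65.0) and a log2 ratio of 0.48 (0.31 to 0.64), but its span overlaps another entry, so that its reads could be shared. The proteins L17 and L28 have counterparts in the bacterial ribosome. MRPL30, second in the mean RPKM of both libraries, went the other way, with 346 reads (RPKM 67.7) in the abnormal library compared with 482 reads (RPKM 92.4) in the normal and a log2 ratio of -0.45 (-0.65 to -0.25). The highest log2 ratio of the subunit was that of MRPL35, which had 208 and 127 reads (RPKM 33.8 and 20.2; 0.74, 0.42 to 1.06). The lowest were MRPL1 with 200 and 327 reads (-0.68, -0.93 to -0.42), MRPL27 with 143 and 233 reads (-0.67, -0.97 to -0.37) and MRPL14 with 279 and 405 reads (-0.51, -0.73 to -0.29). With the deposited totals, the sum near 0 was thus made of members that differed in both directions by more than counting error. The difference between MRPL17 and MRPL1, a pair picked after the values were seen, was 1.19 on the log2 scale (0.89 to 1.48). No scaling of the libraries can alter it.

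The small subunit binds the mRNA and reads its codons. Its 25 entries summed to 4594 reads in the abnormal library compared with 4319 in the normal, a log2 ratio of 0.12 (0.060 to 0.18), and -0.13 without the mitochondrially encoded mRNAs in the totals. The median log2 ratio of 24 entries was 0.15 (-0.21 when scaled to the median ratio) and the range from -0.76 to 1.64 was wider than in the large subunit. Both called ribosomal entries belonged here. MRPS18B was listed with 1 read in the abnormal library compared with 0 reads in the normal, which is below the floor of 3 reads, and no ratio is given for it. The sum of the small subunit exceeded that of the large subunit in its log2 ratio by 0.11 (0.035 to 0.19). This excess is in reads, where long transcripts weigh more, and it was not seen in summed RPKM, given below.

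MRPS27 was the member that rose most: it had 107 reads (RPKM 17.6) in the abnormal library compared with 35 reads (RPKM 5.65) in the normal, a log2 ratio of 1.64 (1.10 to 2.19). This entry lies on the forward strand of chromosome 10 from 64352999 to 64353956 in Sscrofa9, is annotated as a pseudogene, and has a span of 958 bases for a transcript of 951 bases, that is, no intron. The reads covered 72.9% of it in the abnormal library compared with 52.6% in the normal. No other entry with reads was named S27 of the mitochondrial ribosome, so reads of an intact MRPS27 gene and of this copy could not be told apart. MRPS16, a protein shared with the bacterial small subunit, had 177 reads (RPKM 28.8) in the abnormal library compared with 89 reads (RPKM 14.2) in the normal, a log2 ratio of 1.02 (0.66 to 1.39). It lies on the reverse strand of chromosome 14 from 79333502 to 79335716. Its log2 ratio of 0.78 without the mitochondrially encoded mRNAs was no longer past the threshold. MRPS28 had a log2 ratio of 1.17 (0.11 to 2.22) on only 22 and 10 reads and was not called.

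The most abundant small-subunit transcripts did not share this direction. MRPS21 had 106 reads (RPKM 63.0) in the abnormal library compared with 163 reads (RPKM 94.8) in the normal, with a log2 ratio of -0.59 (-0.94 to -0.24). Like that of MRPS27, its entry has no intron, with 264 bases in both span and transcript, though it is not annotated as a pseudogene. Whether its reads come from a copy was not tested. MRPS25 had 148 and 231 reads (RPKM 46.6 and 71.2), with a log2 ratio of -0.61 (-0.91 to -0.31), but its span overlaps another entry. MRPS11 had 372 and 404 reads (RPKM 49.3 and 52.4) and a log2 ratio of -0.088 (-0.29 to 0.11), within counting error. The lowest log2 ratio was that of MRPS17, with 129 reads in the abnormal library compared with 223 in the normal (-0.76, -1.07 to -0.45). MRPS16 and MRPS17, both core proteins of the same subunit, differed by 1.78 in their log2 ratios (1.30 to 2.26). The pair was picked for its far-apart values after they were seen, so the interval does not test the difference. Across the 72 members, higher levels went with lower log2 ratios (Spearman's rho -0.348 with mean RPKM, a description across genes of the same libraries). Longer transcripts went with higher log2 ratios (rho 0.304), and level and length were not separated. On the scale of RPKM, summed per subunit, the large subunit had 1194 in the abnormal library compared with 1198 in the normal and the small subunit 714 and 720. The excess of the small subunit in summed reads was thus not seen on this scale.

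**Figure D2:**
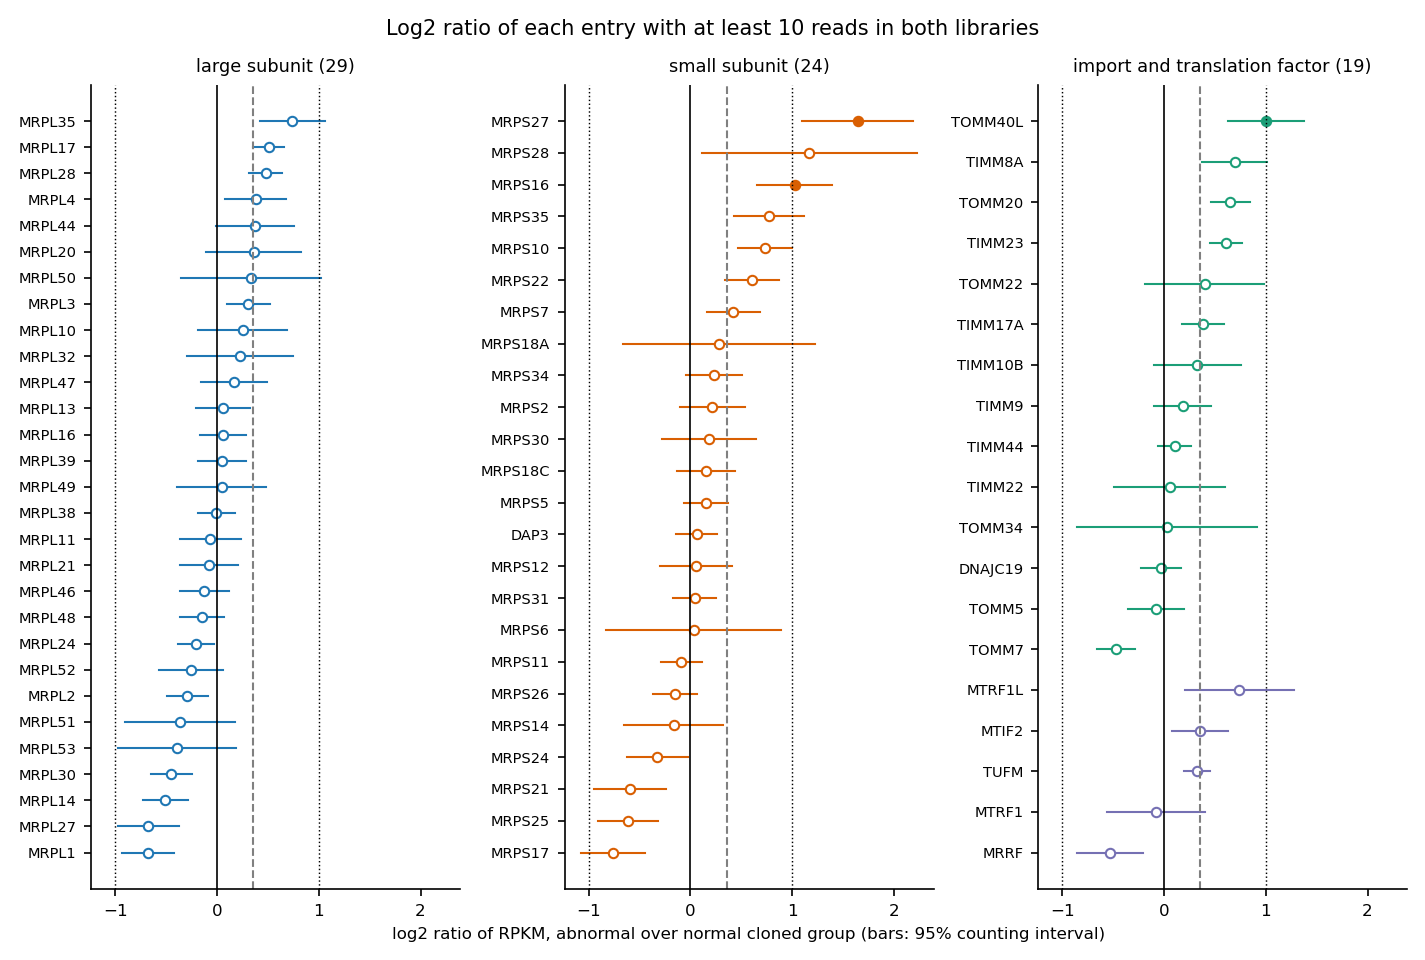
Log2 ratio of RPKM (abnormal over normal) of the 72 members with at least 10 reads in both libraries, by group, each with its 95% counting interval as a bar. Filled points are the 3 called members, the dotted lines the threshold of 1 in size, and the dashed line the median of all entries, 0.36. Each panel holds members on both sides of 0, from -0.76 for MRPS17 to 1.64 for MRPS27.

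The import proteins gave more reads in the abnormal library, 4236 against 3633, a log2 ratio of 0.25 (0.19 to 0.32) that became 0.0052 (-0.059 to 0.069) without the mitochondrially encoded mRNAs in the totals. Their median log2 ratio was 0.26 over 14 entries, of which 11 were above 0, and -0.10 when scaled to the median ratio. An interval above 0 was found for 5 entries and an interval below 0 for 1. In its log2 ratio the import sum exceeded the large-subunit sum by 0.24 (0.16 to 0.32) and the small-subunit sum by 0.13 (0.045 to 0.22), differences that do not depend on the scaling. They do depend in part on TIMM23, the most read import entry. Without it the import sum had 0.18 (0.11 to 0.25), beside 0.12 (0.060 to 0.18) for the small subunit.

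At the outer membrane, TOMM20 and TOMM22 are receptors that bind the targeting sequences of incoming proteins. TOMM20 had 543 reads (RPKM 87.6) in the abnormal library compared with 353 reads (RPKM 55.7) in the normal, a log2 ratio of 0.65 (0.46 to 0.85). TOMM22 had 53 and 41 reads (0.40, -0.18 to 0.99), which did not exceed counting error, and reads covered only 19.2% and 20.4% of its transcript. The small TOM subunits TOMM5 and TOMM7, which help to assemble the complex, did not follow TOMM20. TOMM7 was the most abundant import transcript of the normal library, with 393 reads (RPKM 104) in the abnormal library compared with 556 reads (RPKM 144) in the normal (-0.47, -0.66 to -0.28), and TOMM5 had 200 and 216 reads (-0.080, -0.36 to 0.20). The log2 ratios of TOMM20 and TOMM7, a pair picked after the values were seen, differed by 1.12 (0.85 to 1.39). TOMM34, a cytosolic helper of import, had 20 reads in each library.

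TOMM40L, a paralogue of the TOMM40 channel, was the only called import entry. It rose from 86 reads (RPKM 8.23) in the normal to 169 reads (RPKM 16.5) in the abnormal library, a log2 ratio of 1.01 (0.63 to 1.38), and lies on the reverse strand of chromosome 4 from 92740196 to 92743622. Without the mitochondrially encoded mRNAs in the totals its log2 ratio was 0.76 and it was not called. The TOMM40 channel itself is not matched by the naming rule. Looked up by its symbol, it had 748 and 546 reads (RPKM 84.9 and 60.6), a log2 ratio of 0.49 (0.33 to 0.64).

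At the inner membrane, TIMM23 and TIMM17A form the channel for proteins bound for the matrix. TIMM23 had the most import reads over both libraries together, 837 (RPKM 108) in the abnormal library compared with 560 (RPKM 70.6) in the normal, a log2 ratio of 0.61 (0.46 to 0.77). TIMM17A had 426 and 334 reads (RPKM 73.1 and 56.1; 0.38, 0.18 to 0.59). TIMM44 and DNAJC19 are partners of the HSP70 motor that pulls proteins through this channel; that HSP70, HSPA9, is not matched by the naming rule and is described with the chaperones. TIMM44 had 618 and 586 reads (0.11, -0.055 to 0.27) and DNAJC19 had 410 and 428 reads (-0.031, -0.23 to 0.16). The log2 ratios of the channel protein TIMM23 and the motor partner TIMM44, a pair picked after the values were seen, differed by 0.50 (0.28 to 0.73).

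TIMM22, the channel for carrier proteins of the inner membrane, had 54 and 53 reads (0.058, -0.49 to 0.60). The small TIM proteins escort such carriers across the intermembrane space. Of these, TIMM8A had 198 reads in the abnormal library compared with 125 in the normal (0.69, 0.37 to 1.02), TIMM9 had 218 and 196 reads (0.18, -0.093 to 0.46) and TIMM10B had 97 and 79 reads (0.33, -0.10 to 0.75). Only TIMM8A among them exceeded counting error. Summed, the TIM entries had 2858 and 2361 reads (0.31, 0.23 to 0.39) and the TOM entries 1378 and 1272 reads (0.15, 0.037 to 0.26), a difference of 0.16 (0.025 to 0.30). In summed RPKM the TIM entries had 396 and 320 and the TOM entries 273 and 274, so the TOM sum was higher in reads only. These sums leave out entries that the naming rule does not match. On the TOM side these were TOMM40 (748 and 546 reads, 0.49) and TOMM70 (145 and 46 reads, 1.69). On the TIM side it was TIMM29 (23 and 22 reads, 0.095). The difference thus holds for the matched entries only and not for the whole complexes. TIMM23 alone was 19.8% of the import reads in the abnormal library compared with 15.4% in the normal, and the other import entries had a log2 ratio of 0.18 (0.11 to 0.25).

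The translation factors matched by the naming rule were carried by 1 transcript. TUFM, the elongation factor that delivers aminoacyl-tRNA to the ribosome, had 1065 reads (RPKM 102) in the abnormal library compared with 867 reads (RPKM 81.6) in the normal, a log2 ratio of 0.33 (0.20 to 0.46), and was 67.1% and 62.1% of the reads of the group. The 8 entries summed to 1588 and 1396 reads (0.22, 0.11 to 0.32), but without TUFM the others summed to 523 and 529 reads (0.014, -0.16 to 0.19). These sums leave out the translational GTPases GUF1 (146 and 90 reads, 0.73) and GFM2 (39 and 13 reads, 1.62), which the rule does not match. The median of the 5 entries with at least 10 reads in both libraries was 0.33, and -0.032 when scaled to the median ratio. No factor was called.

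Initiation, release and recycling differed among themselves. The initiation factor MTIF2 had 239 and 191 reads (0.35, 0.080 to 0.63), whereas both entries of MTIF3 were near the detection limit, with 3 and 5 reads in one and 7 and 6 reads in the other. Of the release factors, which free the finished chain, MTRF1L had 72 reads in the abnormal library compared with 44 in the normal (0.74, 0.20 to 1.28) and MTRF1 had 66 and 71 reads (-0.074, -0.56 to 0.41). MTRFR, which rescues stalled ribosomes, had 9 reads in the abnormal library compared with 25 in the normal, the lowest log2 ratio of the group at -1.44 (-2.52 to -0.37), and missed the false discovery rate. The recycling factor MRRF, which splits the ribosome after release, had 127 and 187 reads (-0.53, -0.85 to -0.20). With the deposited totals, values of MTRFR and MRRF lay below 0 and those of TUFM, MTIF2 and MTRF1L above 0 by more than counting error. TUFM and MRRF, a pair picked after the values were seen, differed by 0.85 in their log2 ratios (0.51 to 1.20).

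The log2 ratio was higher in longer transcripts over all entries, and the members are short. The median over all entries was 0.031 for transcripts of up to 500 nt, 0.11 from 501 to 1000 nt, 0.25 from 1001 to 1500 nt, 0.39 from 1501 to 2000 nt and 0.69 above 5000 nt. The members had a median length of 972 nt against 1479 nt for all entries. In the same classes their medians were 0.031 (7 entries), 0.056 (30 entries), 0.12 (24 entries) and 0.31 (9 entries), each at or below that of all entries. Against the 3397 entries between the 10th and the 90th percentile of the members' lengths, 519 to 1628 nt, whose median was 0.21, the gap of the members' median was -0.13, less than the -0.27 against all entries. Adding their RPKM range left 1440 entries with a median of 0.22. The gap in medians was thus smaller against entries of like length. Of these 1440 entries 662 had an interval above 0 and 278 an interval below 0, beside 20 and 12 of the 72 members. Without the limit on reads 279 of 1443 were called higher and 44 lower, beside 3 and 0 of the 77 members. Against these entries the gap of the members' median was -0.14, so a gap in medians remained. Calls of higher entries were also fewer among the members for their number. Calls of lower entries were few in both. What the length stands for was not tested.

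**Figure D3:**
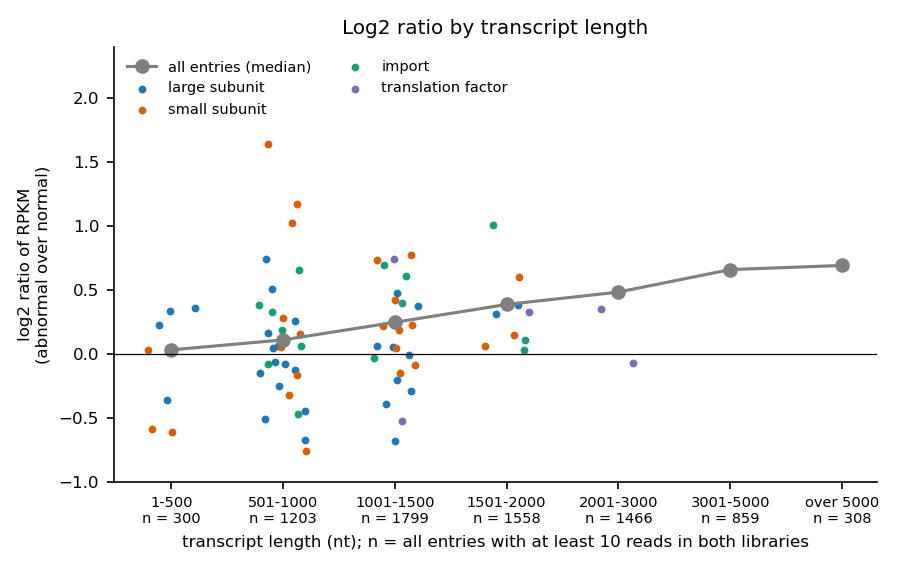
Log2 ratio of RPKM by class of transcript length. The grey line joins the medians of all entries with at least 10 reads in both libraries, which rise from 0.031 to 0.69, and coloured points are single members, placed at random within their class. The members fall in the shorter classes and spread on both sides of the grey line.

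The proteins of the cytosolic ribosome, which make nearly all other proteins of the cell, gave lower log2 ratios than those of the mitochondrial ribosome. Their 65 entries took 120237 reads in the abnormal library compared with 138735 in the normal, a log2 ratio of -0.18 (-0.19 to -0.16), and 34 of the 47 entries with at least 10 reads in both libraries were below 0, with a median of -0.15. The mitochondrial ribosome, both subunits together, had 11884 and 11722 reads (0.051, 0.014 to 0.088). The difference between the log2 ratios of the sums was 0.23 (0.19 to 0.26) whatever the scaling. The cytosolic transcripts are shorter still, with a median of 579 nt.

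The 13 entries for the proteins that this machinery makes were lower in the abnormal library in most cases. Their sum had a log2 ratio of -0.36, and 9 of 13 had an interval below 0. Read counts of COX1, a catalytic subunit of cytochrome c oxidase, were 798696 in the abnormal library compared with 949150 in the normal (-0.22), and those of COX3, of the same complex, were 241131 and 435998 (-0.82). ND3 and ND6, subunits of complex I, fell: ND3 had 18825 and 45588 reads (-1.25) and ND6 had 55069 and 121513 reads (-1.11). ND4L rose, with 16344 and 5933 reads (1.49). The 4 entries with an interval above 0 were ND4L, ATP8 (0.81), ND5 (0.73) and ND4 (0.052), named after their values were seen. ND4L overlaps ND4, ATP8 overlaps ATP6 and ND5 overlaps ND6, so that reads at their ends could go to either. The overlap of ND4L, which ends at base 11365, with ND4, which starts at base 11359, is short. Overlapping entries need not be separate mRNAs. Why ND4L differed from ND4, and ATP8 from ATP6 (-0.44), was not tested. The 13 entries thus did not all go in the same direction, which need not hold for whole mRNAs. Their median log2 ratio of -0.44 was lower than the 0.086 of the members.

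**Figure D4:**
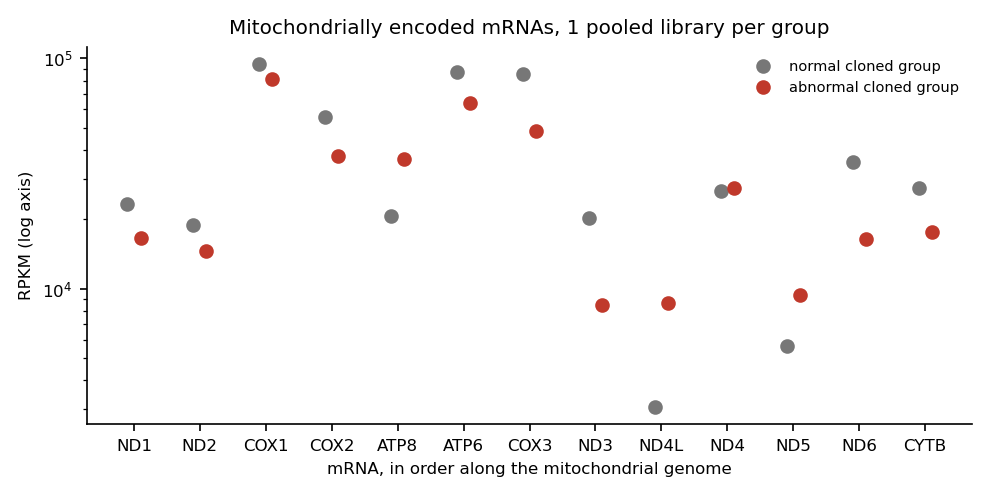
RPKM of the 13 entries for mitochondrially encoded proteins, in their order along the mitochondrial genome, on a log axis with 1 pooled library per group. Grey points are the normal and red points the abnormal cloned group. The red point is the lower one for 9 of the 13 entries and the higher one for ATP8, ND4L, ND4 and ND5.

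Genes that act before or beside this machinery were looked up from lists of symbols. Ligases and partners that charge mitochondrial tRNAs were found for 17 of 23 symbols. Only GARS, which also serves the cytosol, was called higher, with 917 and 456 reads (1.04). KARS, also shared with the cytosol, had 3419 and 2945 reads (0.25) and IARS2 had 893 and 748 reads (0.29). All 14 with at least 10 reads in both libraries were above 0, with a median of 0.49.

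Genes of mitochondrial transcription and RNA handling were found for 26 of 36 symbols, with 4 called higher, none called lower and a median of 0.43. PTCD3, a pentatricopeptide protein of the small subunit, is not matched by the naming rule. It rose from 263 reads in the normal to 690 in the abnormal library (1.42, 1.22 to 1.63). LRPPRC, which stabilises mitochondrial mRNAs, rose from 748 to 1514 reads (1.05), the poly(A) polymerase MTPAP from 68 to 163 reads (1.29) and PTCD1 from 75 to 150 reads (1.03). The dehydrogenase HSD17B10, a part of mitochondrial RNase P, had 513 and 662 reads (-0.34) and the DNA polymerase POLG had 313 and 197 reads (0.70).

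Factors of ribosome assembly and of insertion into the inner membrane were found for 12 of 21 symbols, and their median of 0.063 was close to that of the ribosomal proteins. LETM1 was the only one called, from 132 to 393 reads (1.60, 1.32 to 1.89). OXA1L, which inserts new chains into the membrane, had 1656 and 1814 reads (-0.10) and DHX30 had 335 and 189 reads (0.86).

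Peptidases and chaperones that receive imported proteins were found for 19 of 35 symbols, 2 of which, TIMM44 and DNAJC19, are members as well. HSPA9, the matrix HSP70 that drives import, rose from 2743 reads (RPKM 151) in the normal to 7836 reads (RPKM 440) in the abnormal library, a log2 ratio of 1.55 (1.48 to 1.61). The reads of HSPA9 in the abnormal library exceeded the 4236 reads of the 14 import entries together. CLPX rose from 105 to 352 reads (1.78) and the peptidase OMA1 from 36 to 75 reads (1.09). HSPD1 and HSPE1, the matrix chaperonin and its partner, had 2406 and 1422 reads (0.79) and 977 and 743 reads (0.43). The median of the list, 0.36, was that of all entries.

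Regulators of mitochondrial biogenesis had the highest median of these lists, 1.09 over 10 entries, with all 10 above 0. Of the 12 of 16 symbols found, 4 were called higher: the AMPK subunit PRKAA2 rose from 114 to 318 reads (1.51), SIRT1 from 22 to 61 reads (1.50), MYC from 207 to 434 reads (1.10) and the coactivator PPRC1 from 206 to 424 reads (1.07). ESRRA, a nuclear receptor that acts on mitochondrial genes, had 481 and 248 reads (0.99) and SIRT3 had 111 and 76 reads (0.58). Of the 86 entries of these 5 lists 13 or 15.1% were called higher, beside 12.0% of all entries, and none lower. Without the mitochondrially encoded mRNAs in the totals 6.98% were called higher, beside 987 of all 12535 entries. With the median ratio, TMM and totals without the 20 most abundant transcripts it was 5.81% each, beside 812, 751 and 882 of all entries. With these 4 scalings the share in the lists did not exceed that of all entries. With each of the 4 other scalings of the libraries CLPX, HSPA9, LETM1, PRKAA2 and PTCD3 were still called, MTPAP was called with 1 of them, and GARS, LRPPRC, MYC, OMA1, PPRC1, PTCD1 and SIRT1 with none, while DNAJC15 was called lower with the median ratio and TMM. Of the members with at least 10 reads in either library, a log2 ratio of 1 in size was reached only by the 3 called ones, MRPS28 and, in the other direction, MTRFR.

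**Figure D5:**
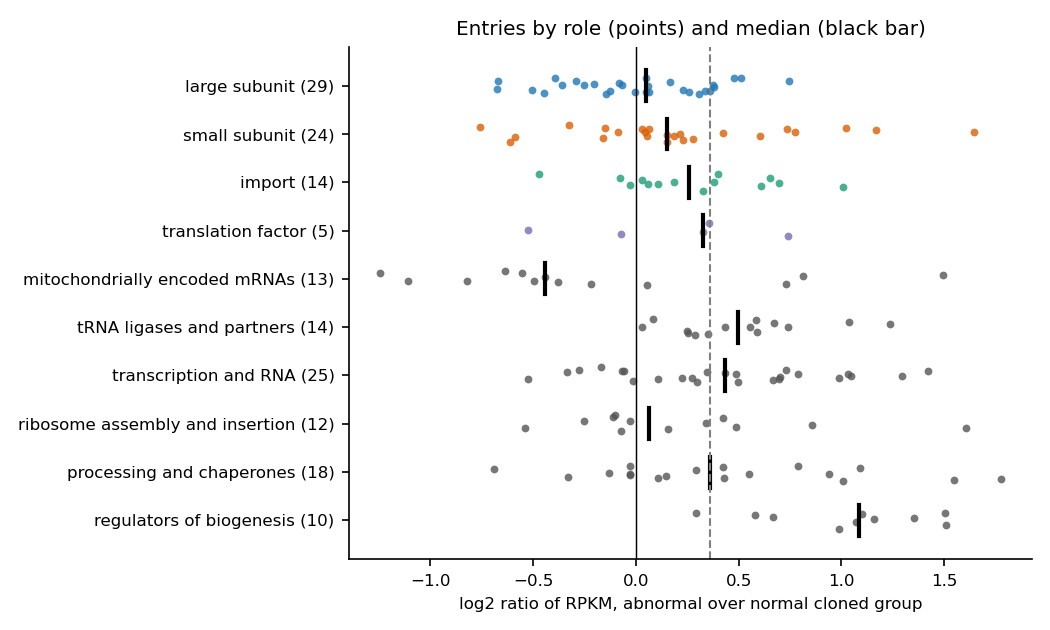
Log2 ratio of RPKM of each entry with at least 10 reads in both libraries, by role, with the number of entries in brackets. Points are entries, black bars medians and the dashed line the median of all entries, 0.36. Medians run from -0.44 for the mitochondrially encoded mRNAs to 1.09 for the regulators of biogenesis, with the 4 groups of members between 0.048 and 0.33.

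The rule on protein names left out 10 entries of the same machinery, found afterwards by their reference symbols. TOMM70, the receptor for carrier proteins, rose from 46 reads (RPKM 8.77) in the normal to 145 reads (RPKM 28.2) in the abnormal library, a log2 ratio of 1.69 (1.21 to 2.16), and was the only called one with the deposited totals. MRPL22 had 115 and 194 reads (-0.72, -1.06 to -0.39), below the lowest member of the large subunit, and was called lower with 3 of the 4 other scalings. GUF1 and GFM2, both translational GTPases, had 146 and 90 reads (0.73, 0.35 to 1.11) and 39 and 13 reads (1.62, 0.72 to 2.51). Together with these entries the median log2 ratio was 0.10 over 82 entries, and 4 of 87 were called higher. PTCD3, called higher at 1.42, is not in these counts although its protein belongs to the small subunit, because its symbol was not searched for.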

How the data were processed

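Total RNA of the muscle pools was enriched for mRNA with oligo(dT) beads, fragmented and reverse transcribed with random hexamers. With SOAPaligner/soap2 and at most 2 mismatches, the authors mapped the reads to Sscrofa9 and deposited for each transcript the count of uniquely mapped reads, the RPKM and the percent of the transcript covered by reads. Recomputing the deposited RPKM from counts, lengths and totals gave it back to within a relative difference of 3.3e-08. Counting by strand is not given in the sources used here, so overlapping entries could share reads: 13 members overlap the span of another entry, 2 share a name and 1 is a pseudogene. All positions are in Sscrofa9 as deposited, and 58 members matched a RefSeq, Ensembl or deposited symbol.

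The tables were joined by entry, an absent entry being 0 reads. The members and gene lists were chosen with earlier results of these data known. Audic-Claverie probabilities, two-sided by doubling, were adjusted by Benjamini-Hochberg over 12535 entries. An entry was called when this false discovery rate was 0.001 or less and its log2 ratio was 1 or more in size. Intervals of log2 ratios come from the 95% Wilson interval of the share of an entry's reads that the abnormal library held. Differences between log2 ratios are log odds ratios of reads, for pairs chosen after their values were seen. Medians use entries with 10 or more reads in both libraries. Named are the import entries and translation factors with at least 10 reads in either library, in each subunit the 3 highest by mean RPKM, the 3 highest and 3 lowest log2 ratios and each called entry, and of each list the called entries and at most 2 more with the most reads. MRPS18B, MTIF3, the entries outside the naming rule and the neighbours of members were named after their values were seen. Calls and intervals were tested on simulated data. The alternatives were other scalings (TMM in edgeR among them), tests, thresholds, a pseudocount and left-out entries. Backgrounds limited by length and RPKM, the 10 added entries and sums without the most read entry were chosen after seeing the data. Versions were R 4.3.3 and edgeR 4.0.16, and for the other steps Python 3.11.15, scipy 1.17.1, numpy 2.4.6, matplotlib 3.10.9 and pandas 2.3.3. Methylation data were not analysed here.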

Additional observations from a re-analysis of the deposited data

How the results depend on the processing

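Of the 77 members, 3 were called higher and 0 lower, beside 1510 and 182 of all 12535 entries. Totals without the mitochondrially encoded transcripts, and totals without the 20 most abundant transcripts, left 1 higher (MRPS27) and 1 lower (MRPS17). Scaling to the median ratio gave 1 higher and 3 lower (2 in the large and 1 in the small subunit), and TMM gave 1 higher and 4 lower (2 in each subunit). A pseudocount of 1 left 1 called higher. Of all 12535 entries, 987 were called higher and 369 lower without the mitochondrially encoded transcripts, and 882 and 424 without the 20 most abundant. The median ratio gave 812 and 498, TMM 751 and 548 and the pseudocount 1267 and 152. More lower calls with other scalings were thus not particular to the members. In all 5 of these settings MRPS27 was the one called higher and no import entry was called (0 in place of 1). With edgeR's exact test and an assumed biological variation of 0.2 or 0.4, 0 members were called in either direction, a result of the assumed variation. Of all entries, 243 were then called higher and 20 lower at 0.2, and 2 and 1 at 0.4. A log2 threshold of 0.5 gave 11 higher (2 large subunit, 5 small subunit, 4 import) and 5 lower (3 large and 2 small subunit), beside 2143 and 454 of all entries. An FDR of at most 0.05 added 1 lower entry, MTRFR, where 1974 of all entries were called higher and 342 lower. Fisher's exact test, and the limit to entries with 10 reads or more in each library, gave the same 3 entries, and without overlapping, doubled or pseudogene entries the small subunit kept 1 call in place of 2. Fisher's test called 1510 of all entries higher and 176 lower, and the limit on reads 1386 and 158. With the median ratio, TMM and totals without the 20 most abundant transcripts, the median log2 ratio of all members was -0.27, -0.31 and -0.22, that of the large subunit -0.31, -0.35 and -0.26, of the small subunit -0.21, -0.24 and -0.16 and of import -0.10, -0.14 and -0.052, and for the translation factors it was -0.032 and -0.066 with the first 2. In summed reads, the log2 ratio without mitochondrially encoded transcripts, with the median ratio, with TMM and without the 20 most abundant transcripts was -0.14, -0.25, -0.28 and -0.20 for all members, -0.24, -0.35, -0.38 and -0.30 for the large subunit, -0.13, -0.24, -0.27 and -0.19 for the small subunit, 0.0052, -0.11, -0.14 and -0.055 for import and -0.030, -0.14, -0.18 and -0.091 for the translation factors. These scalings shift every entry by one constant. With the most read entry of the group left out, the sum gave -0.046 for the large subunit, 0.18 for import and 0.014 for the translation factors. No paired analysis was possible because each group is 1 library, and no replicate could be left out for the same reason. Depth limits the 5 members under 10 reads in either library, which entered no median; of these only MTRFR, with 9 and 25 reads, was set beside other entries.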

Other observations

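Several members share a start region with a neighbour on the opposite strand. The starts of 12 members lie within 1000 bases of such a neighbour's start in Sscrofa9, and these pairs were looked up after the values were seen. MRPL46 and MRPS11, which code for proteins of different ribosomal subunits, start 58 bases apart on chromosome 1, with log2 ratios of -0.12 and -0.088. MRPL47 and NDUFB5, a subunit of complex I, start 44 bases apart, with log2 ratios of 0.17 and -0.11. In other pairs the values differed: MRRF had a log2 ratio of -0.53 while RBM18, an RNA-binding protein gene 69 bases away, had 115 reads in the abnormal library compared with 52 in the normal (1.18, 0.71 to 1.65). MRPL21 gave -0.080 and its neighbour IGHMBP2, 87 bases away, 1.11 (0.67 to 1.55). MRPS7 gave 0.42 and GGA3, 75 bases away, 1.04 (0.70 to 1.37). TIMM23 gave 0.61 and PARG, 312 bases away, 1.68 (0.98 to 2.38) on 66 and 21 reads.

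The proteins of the mitochondrial ribosome fall into those with a bacterial counterpart and those found only in mitochondria, a split made after the values were seen. The 33 measured entries of the first kind had a median log2 ratio of 0.062 and the 20 of the second kind 0.049. Within the second kind the large subunit had a median of -0.065 over 10 entries, with 0 intervals above 0 and 0 below, and the small subunit 0.21 over 10 entries, with 4 intervals above 0 and 1 below.

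Reads covered under 25% of the transcript in both libraries for 7 members, and 6 members have no intron in the annotation. The intronless entries, MRPS21 among them, had a median log2 ratio of 0.13, with 1 of the 6, MRPS27, called.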
